A study of Mus musculus with 24 samples.

Results

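The dendritic cell genes described here are 9 genes that mark dendritic cells or their subsets, namely Flt3, Batf3, Zbtb46, Xcr1, Clec9a, Cd209a, Clec10a, Siglech and Fscn1. They were chosen by name and matched by symbol to the Ensembl identifiers of the count table, where 9 of 9 were found among 41388 genes. Dendritic cells take up antigen in tissues, move to lymph nodes and present it to T cells. Classical dendritic cells fall into a cDC1 subset, specialised in taking up dead cells and presenting their antigens to CD8 T cells, and a cDC2 subset, which presents mainly to CD4 T cells, while plasmacytoid dendritic cells are known for making type I interferon. In experimental autoimmune myocarditis (EAM), the disease is started by priming T cells against a heart protein, and dendritic cells are known to carry out that priming.

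The samples were hearts of wild type male Balb/c mice (BALB/cAnNCrl), aged 8 to 10 weeks when immunized. EAM mice were injected on days 0 and 7 with a myosin heavy chain peptide in supplemented complete Freund's adjuvant (SCFA), with pertussis toxin (PTX) on day 0. Control mice were given the adjuvant with PBS and no peptide, and the same PTX, so both groups share the adjuvant and the toxin. Hearts were taken at D10, D15 and D21, with 4 EAM and 4 control hearts at each, and RNA from part of each heart was sequenced. EAM hearts for sequencing had been picked, as far as possible, to show inflammation. At D10, however, the paper found neither raised CD45 cells in the heart nor raised cardiac troponin I in any EAM mouse.

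Total counts per library lay between 15814863 and 24980864. Of the 24 libraries, 20 share a library code and the 4 D21 EAM libraries have another, and what the code marks is not stated, so the library code and EAM cannot be told apart at D21. Summed levels of 6 cardiomyocyte genes were between 24617 and 30993 CPM (reads of a gene scaled to library size, with TMM factors) in the 12 controls and between 6740 and 17322 CPM in D15 EAM hearts. In whole tissue, more cells of a type and more RNA per cell cannot be told apart. EAM and control hearts were compared at each time point with edgeR's quasi-likelihood test, and a gene was called at a Benjamini-Hochberg FDR under 0.01, over all genes kept, with at least a 2-fold change. A gene was kept with 10 or more reads in 4 or more samples.

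In the GENCODE M21 annotation of GRCm38, Flt3 at chr5:147330741-147400489 (minus strand), Batf3 at chr1:191097847-191108945 (plus strand) and Zbtb46 at chr2:181387762-181459426 (minus strand) encode a receptor and a pair of transcription factors. The cDC1 receptor genes are Xcr1 at chr9:123852315-123862029 (minus strand) and Clec9a at chr6:129408862-129424763 (plus strand), and the lectin genes of cDC2 cells Cd209a at chr8:3743397-3748984 (minus strand) and Clec10a at chr11:70156197-70170834 (plus strand). Siglech at chr7:55768178-55778925 (plus strand) marks plasmacytoid cells and Fscn1 at chr5:142960343-142973185 (plus strand) mature ones. Reads on their exons were counted.

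Most of these genes had few reads in the heart. Flt3 had fewer than 10 reads in 12 of 24 libraries, 10 of them controls, and was not tested at D10 for this reason. Batf3 was under 10 reads in 7 libraries, Cd209a in 3, Siglech in 2 and Xcr1 in 1. Clec9a, Clec10a, Zbtb46 and Fscn1 had more than 10 reads in every library, and no member was at 0 in any library. Fewer than 10 reads leave a wide counting error, and a floor of 3 reads corresponds to 0.120 to 0.190 CPM.

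Compared per length of the exons, Fscn1 was the most abundant member in control hearts, with 30.8 ± 6.04 CPM per kb (SD, n = 12 hearts over the 3 time points). Zbtb46 followed with 3.07 ± 0.234, then Clec9a with 1.996 ± 0.241 and Clec10a with 1.57 ± 0.388 CPM per kb. Cd209a was at 0.687 ± 0.359, Siglech at 0.430 ± 0.194, Batf3 at 0.313 ± 0.141, Xcr1 at 0.226 ± 0.0753 and Flt3 at 0.0590 ± 0.0241 CPM per kb. Clec9a and Clec10a, and each neighbouring pair from Cd209a to Xcr1, differed by less than the sum of their SDs. In D15 EAM hearts the order per length changed to Fscn1 (38.3 ± 6.87), Clec10a (6.08 ± 1.39), Clec9a (3.24 ± 0.489), Batf3 (2.73 ± 0.312), Zbtb46 (1.79 ± 0.209), Cd209a (1.30 ± 0.780), Xcr1 (1.28 ± 0.541), Siglech (0.879 ± 0.256) and Flt3 (0.761 ± 0.275 CPM per kb, SD, n = 4). There, only the steps from Fscn1 to Clec10a, from Clec10a to Clec9a and from Batf3 to Zbtb46 were larger than the sum of the SDs.

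**Figure D1:**
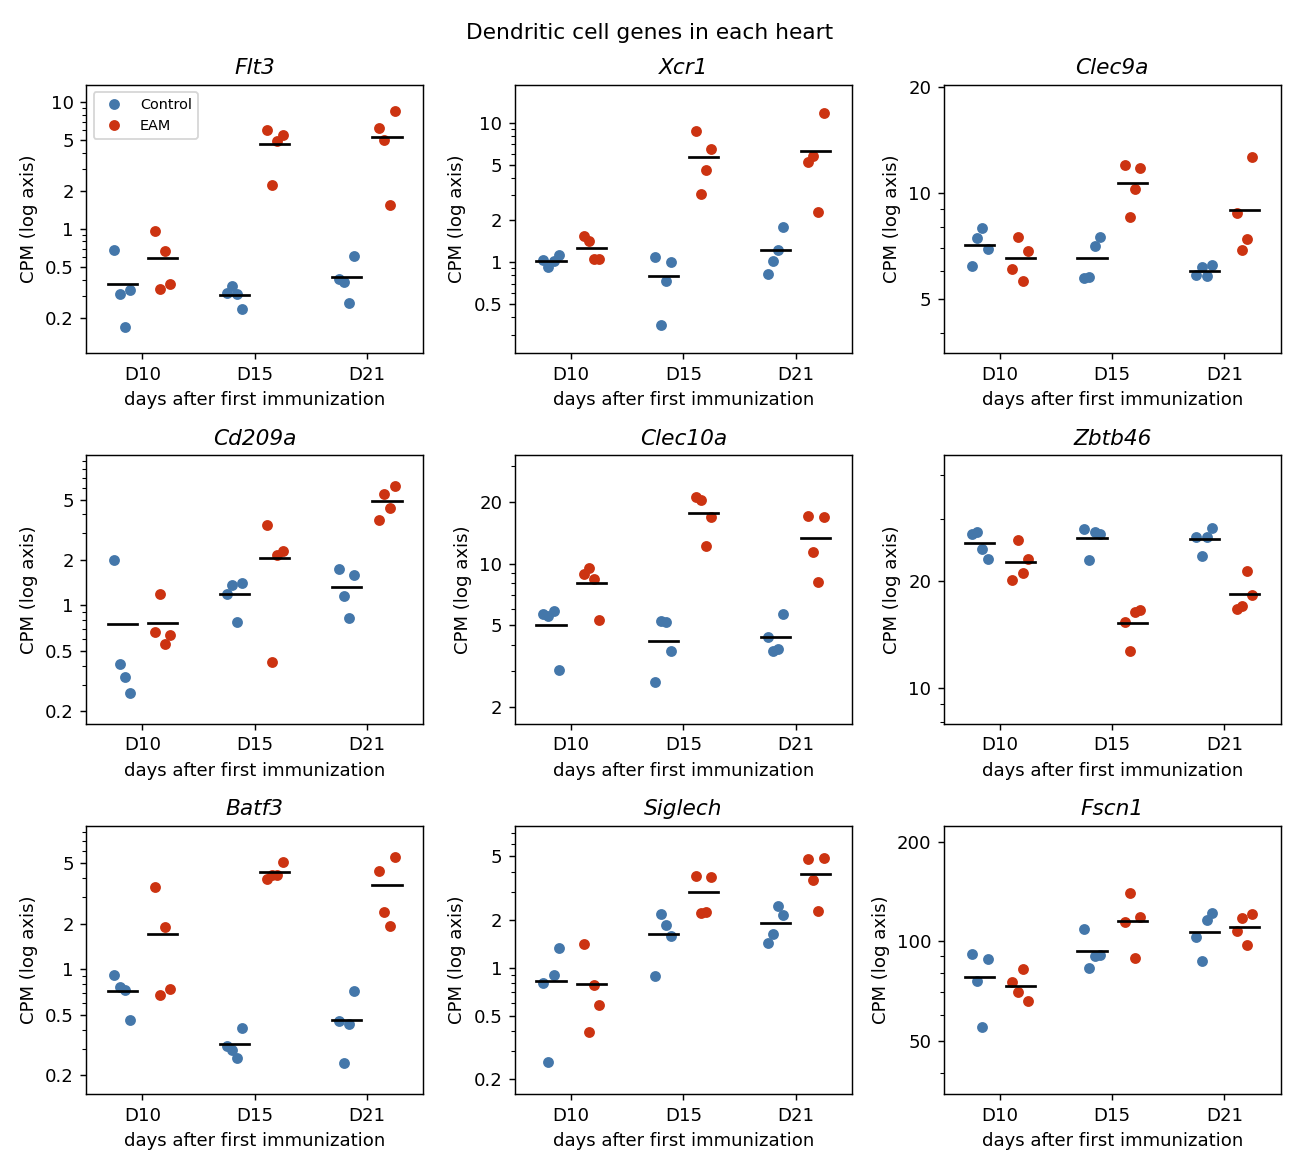
Level of each dendritic cell gene in each of the 24 hearts, in TMM-normalized CPM on a log axis, by days after the first immunization. Points are hearts, blue for control and red for EAM, and black lines are means of 4 hearts. Flt3 and Batf3 stand apart in EAM hearts at D15 and D21, Zbtb46 is lower there, and the Fscn1 groups overlap at every time point.

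At D15, 4 of the 9 members were higher in EAM hearts by both limits, Flt3, Batf3, Xcr1 and Clec10a, and none was called lower. No D15 control reached 10 reads for Flt3 and Batf3, which passed the read filter through the EAM hearts alone. Of all genes tested at D15, 18.1% were called higher and 12.9% lower. At D21 the called members were Flt3, Batf3, Cd209a and Clec10a, again 4 of 9 and none lower, where 4.13% of all genes were called higher and 1.16% lower. At D10, 0 of 8 tested members were called, and the percentage called of all genes was 0 in either direction. The paper, with the same limits in its own edgeR analysis, reports genes induced from D10 on. At an unadjusted p under 0.05 edgeR's test had 2 members at D10, Clec10a and Batf3, and DESeq2 and the likelihood ratio test also called 0 members. The tested members had a median log2 fold change of -0.0082 (D10), 0.91 (D15) and 1.62 (D21), beside -0.0079, 0.016 and -0.0064 for all genes tested.

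The D21 calls, with adjusted p between 0.00526 and 0.00676 in edgeR's test, were not stable with 1 library left out. Leaving out any control, or EAM replicate 1 or 2, left 0 members called. Without EAM replicate 3 there were 6, with Xcr1 and Siglech added, and without EAM replicate 4 there were 3. In these fits the log2 fold change ranged from 3.38 to 3.99 for Flt3 and from 2.69 to 3.23 for Batf3. It ranged from 1.72 to 2.05 for Cd209a and from 1.49 to 1.78 for Clec10a. The 4 calls of D15 were kept in 8 of 8 fits with 1 library left out.

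Flt3 encodes the receptor for Flt3 ligand, the growth factor that drives dendritic cell development. At D15 it was at 6.03, 2.24, 4.98 and 5.55 CPM in the 4 EAM hearts and at 0.312, 0.354, 0.311 and 0.235 CPM in the 4 controls. Each D15 EAM heart was above each control, and EAM replicate 2 was the lowest of the EAM hearts. The log2 fold change was 3.96 ± 0.38 (standard error, adjusted p = 1.5e-05), resting on 4 to 6 reads in each control. At D21 the EAM hearts held 6.26, 5.01, 1.54 and 8.55 CPM against 0.407, 0.384, 0.263 and 0.614 CPM in controls. EAM replicate 3 was the lowest and still above each control, and the log2 fold change was 3.71 ± 0.54 (adjusted p = 0.00545). At D10 the 8 hearts overlapped, with 0.972, 0.340, 0.668 and 0.369 CPM in EAM and 0.685, 0.307, 0.168 and 0.330 CPM in controls.

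Batf3 encodes a bZIP transcription factor needed for the development of cDC1 cells, and is also made by activated T cells. At D15 Batf3 was at 3.95, 4.20, 4.22 and 5.09 CPM in EAM hearts and at 0.312, 0.295, 0.259 and 0.412 CPM in controls. The EAM hearts lay close together, far above the controls, and the log2 fold change was 3.79 ± 0.19 (adjusted p = 2.83e-07). At D21 the EAM hearts were at 4.48, 2.40, 1.94 and 5.52 CPM and the controls at 0.457, 0.240, 0.438 and 0.717 CPM, a log2 fold change of 2.98 ± 0.45 (adjusted p = 0.00575). The groups did not overlap at D21 but the EAM hearts were more spread than at D15. At D10 the EAM hearts were at 3.49, 0.680, 1.89 and 0.739 CPM and the controls at 0.913, 0.768, 0.730 and 0.463 CPM. EAM replicates 1 and 3 were above every control at D10 and replicates 2 and 4 among them, and the log2 fold change of 1.23 ± 0.54 did not pass (adjusted p = 0.328).

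Ptprc, which encodes the pan-leucocyte protein CD45, did not pass at D10 (log2 fold change 1.35 ± 0.55, adjusted p = 0.328). It was at 194, 27.7, 56.7 and 41.6 CPM in D10 EAM hearts and at 38.6, 33.9, 28.5 and 23.9 CPM in D10 controls. EAM replicate 1 was the highest of the D10 hearts for Ptprc as for Batf3 and Flt3, and replicate 2 lay among the controls. The same replicate 1 stood apart in other lists too. Its summed level was the highest of the D10 hearts for 4 monocyte genes, at 637 CPM against 14.5 to 55.4 in D10 controls. It was the lowest for the 6 cardiomyocyte genes, at 16406 CPM against 25981 to 30993, and for 8 endothelial genes, at 847 CPM against 1231 to 1308. Without it, the D10 log2 fold change of Batf3 was 0.59 (adjusted p = 0.578 by edgeR's test), and it ranged from 0.59 to 1.49 with each D10 library left out in turn. With or without replicate 1, 0 members were called at D10.

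Zbtb46 encodes a zinc finger transcription factor of classical dendritic cells, and is also known from endothelial cells. It was the only member lower in EAM hearts at D15 and D21, although by less than 2-fold. At D15 the gene was at 15.3, 12.7, 16.3 and 16.5 CPM in EAM hearts and at 28.0, 22.9, 27.5 and 27.3 CPM in controls. Each EAM heart was below each control, with a log2 fold change of -0.76 ± 0.11 (adjusted p = 0.000142). At D21 the EAM hearts were at 16.7, 17.0, 21.4 and 18.3 CPM and the controls at 26.7, 23.6, 26.6 and 28.3 CPM, a log2 fold change of -0.50 ± 0.10 (adjusted p = 0.0116). The D21 groups did not overlap either, though the FDR limit was missed. At D10 the values overlapped, from 20.1 to 26.2 CPM in EAM and from 23.1 to 27.6 CPM in controls (log2 fold change -0.19, adjusted p = 0.37).

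Zbtb46 was set beside endothelial genes. The summed level of 8 endothelial genes was between 745 and 831 CPM in D15 EAM hearts and between 1123 and 1467 CPM in D15 controls. Of the 8 genes, 2 were called lower at D15, where 12.9% of all genes were, and 0 at D21, with medians of -0.79 and -0.54 on the log2 scale. Their part in the Zbtb46 values was not tested.

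Xcr1 encodes the chemokine receptor by which cDC1 cells respond to XCL1 from T cells and NK cells. In D15 EAM hearts it was at 8.65, 3.08, 4.56 and 6.44 CPM, and in the controls at 1.09, 0.354, 0.725 and 1.001 CPM. The groups did not overlap, and the log2 fold change was 2.86 ± 0.40 (adjusted p = 0.000152). In D21 EAM hearts Xcr1 was at 5.22, 5.72, 2.27 and 11.6 CPM and in controls at 0.813, 1.01, 1.23 and 1.79 CPM. Each D21 EAM heart was above each control, but the spread among EAM hearts was wide and the FDR limit was missed, with a log2 fold change of 2.39 ± 0.49 (adjusted p = 0.0112). DESeq2 and the edgeR likelihood ratio test called Xcr1 at D21 (adjusted p = 2.22e-05 and 4.33e-05). At D10 the EAM hearts were at 1.06 to 1.55 CPM and the controls at 0.922 to 1.12 CPM (log2 fold change 0.31, adjusted p = 0.429).

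Clec9a encodes the C-type lectin with which cDC1 cells bind actin exposed on dead cells. At D15 it was at 12.0, 8.55, 10.3 and 11.8 CPM in EAM hearts and at 5.73, 5.78, 7.09 and 7.54 CPM in controls. Every EAM heart was above every control, but the log2 fold change of 0.74 ± 0.15 was under 2-fold (adjusted p = 0.00128). By D21, EAM hearts were at 8.77, 6.92, 7.42 and 12.7 CPM and the controls at 5.85, 6.19, 5.82 and 6.25 CPM (log2 fold change 0.60 ± 0.21, adjusted p = 0.0556). At D10 the hearts overlapped, between 5.62 and 7.97 CPM. The Clec9a counts carry an uncertainty, since 184 of its exon bases are shared on the same strand with Clec1b, which encodes a platelet receptor. Per the paper, only reads assigned to a single feature were taken further. Clec1b was at 2.16, 5.36, 1.22 and 2.47 CPM in D15 EAM hearts and at 0.365 to 0.932 CPM in D15 controls. At D10 Clec1b was at 4.33 to 9.06 CPM in EAM hearts and at 3.79 to 10.4 CPM in controls. At D21 its groups overlapped, with 0.436 to 2.12 CPM in EAM hearts and 0.744 to 1.23 CPM in controls. The part of Clec1b in the Clec9a values was not tested.

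Cd209a encodes a C-type lectin of the DC-SIGN family found on cDC2 cells and on dendritic cells derived from monocytes. At D21 it was at 3.65, 5.45, 4.41 and 6.12 CPM in EAM hearts and at 1.73, 1.15, 0.831 and 1.59 CPM in controls. The D21 groups did not overlap, and the log2 fold change was 1.91 ± 0.28 (adjusted p = 0.00526). At D15 the EAM hearts were at 3.41, 0.420, 2.15 and 2.28 CPM and the controls at 1.20, 1.36, 0.777 and 1.41 CPM. EAM replicates 1, 3 and 4 exceeded the controls, but replicate 2 was below each of them, and the log2 fold change was 0.83 ± 0.51 (adjusted p = 0.169). Without D15 EAM replicate 2 the log2 fold change was 1.19 and Cd209a was called. At D10 control replicate 1 was at 1.998 CPM and the other D10 hearts of both groups lay between 0.264 and 1.19 CPM.

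Clec10a encodes a galactose-binding lectin of cDC2 cells and of macrophages. At D15 it was at 21.0, 20.4, 12.2 and 16.9 CPM in EAM hearts and at 2.66, 5.25, 5.18 and 3.77 CPM in controls. The groups were well apart, with a log2 fold change of 2.10 ± 0.24 (adjusted p = 4.65e-05). At D21 the EAM hearts were at 17.0, 11.3, 8.15 and 16.8 CPM and the controls at 4.37, 3.74, 3.85 and 5.68 CPM, a log2 fold change of 1.62 ± 0.27 (adjusted p = 0.00676). At D10 the EAM hearts were at 8.93, 9.52, 8.41 and 5.33 CPM and the controls at 5.65, 5.58, 5.90 and 3.04 CPM. EAM replicates 1 to 3 lay above each D10 control, and the log2 fold change of 0.66 ± 0.25 had an unadjusted p of 0.026 in edgeR's test (adjusted p = 0.328). Macrophage genes rose beside Clec10a, with 8 of 8 called higher at D15 and 6 of 8 at D21, and their summed level was between 2757 and 4162 CPM in D15 EAM hearts and between 523 and 613 CPM in D15 controls. Their part in the Clec10a values was not tested.

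Siglech encodes a sialic acid-binding receptor of plasmacytoid dendritic cells. At D15 it was at 3.74, 2.21, 2.24 and 3.70 CPM in EAM hearts and at 0.885, 2.18, 1.86 and 1.59 CPM in controls. The lowest EAM heart was just above the highest control, and the log2 fold change of 0.91 ± 0.30 missed both limits (adjusted p = 0.0207). It was called at D15 with total counts in place of TMM (1.06, adjusted p = 0.00934), where the mean TMM factors of the D15 groups differ by 0.19 on the log2 scale. By D21, EAM hearts were at 4.83, 3.54, 2.27 and 4.86 CPM and the controls at 1.42, 1.63, 2.45 and 2.15 CPM, so replicate 3 of EAM fell among the controls. The log2 fold change of 1.04 ± 0.30 missed the FDR limit (adjusted p = 0.029), while DESeq2 and the edgeR likelihood ratio test called it (adjusted p = 0.00544 and 0.0068). At D10 the groups overlapped, with a log2 fold change of -0.009 ± 0.52 (adjusted p = 0.994).

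Fscn1 encodes the actin-bundling protein fascin, high in mature dendritic cells and also made by cells outside the blood lineages. Its groups overlapped at every time point. It lay between 89.2 and 140 CPM in D15 EAM hearts and between 83.0 and 109 CPM in D15 controls, a log2 fold change of 0.35 ± 0.14 (adjusted p = 0.0435). At D21 the log2 fold change was 0.07 ± 0.13 (adjusted p = 0.678) and at D10 it was -0.09 ± 0.15 (adjusted p = 0.744).

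**Figure D2:**
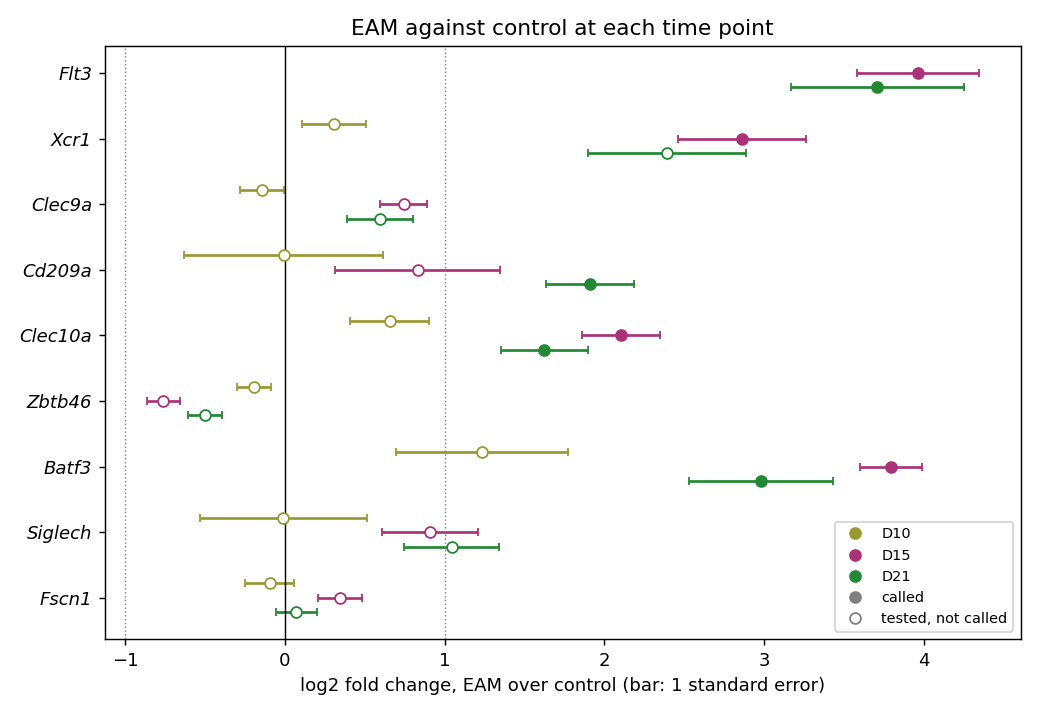
Log2 fold change of EAM over control for each member at D10, D15 and D21, with bars of 1 standard error. Filled points were called at FDR under 0.01 with at least a 2-fold change, and dotted lines mark a 2-fold change. Flt3, Batf3 and Clec10a are called at D15 and D21, Xcr1 at D15 and Cd209a at D21, while Zbtb46 lies below 0 at each time point.

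Whether the effect of EAM differed between time points was tested in a fit of all 24 samples. From D10 to D15, the effect grew by 3.25 ± 0.77 on the log2 scale for Flt3 (adjusted p = 0.00322), 2.502 ± 0.61 for Xcr1 (adjusted p = 0.00363), 2.51 ± 0.66 for Batf3 (adjusted p = 0.00566) and 1.40 ± 0.38 for Clec10a (adjusted p = 0.00692). These 4 of 9 members were called, where 5.38% of all genes had a called increase of the effect and 7.35% a called decrease. Flt3 was not tested at D10 and had fewer than 10 reads in 10 of the 12 controls, so it entered this fit through the EAM hearts. No D15 control reached 10 reads for Flt3 or Batf3. Clec9a (0.84, adjusted p = 0.00694) and Zbtb46 (-0.62, adjusted p = 0.00363) passed the FDR limit with less than a 2-fold difference. With 1 of the 16 libraries left out, Xcr1 was called in 16 of 16 fits, Flt3 in 15, failing without D10 control replicate 1, and Batf3 and Clec10a in 6 each.

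From D15 to D21, 0 of 9 members had a called change of their EAM effect by edgeR's test. At an unadjusted p under 0.05 in that test there were 0, and DESeq2 and the likelihood ratio test also called 0. Standard errors were as large as 0.71, so the lack of calls does not show an equal effect. The D21 EAM libraries also carry another library code. Of all genes, 2.74% had a called increase and 0.919% a called decrease between these time points. The largest difference was that of Cd209a, 1.10 ± 0.71 (adjusted p = 0.251). The effect on Cd209a passed at D21 and not at D15, and these time points were not shown to differ.

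Lists of other dendritic cell genes were counted in the same way. They were chosen with earlier results of these data known, so their counts are not independent of the data. Of all genes, 18.1% were called higher and 12.9% lower at D15, and 4.13% and 1.16% at D21. Among 6 genes of dendritic cells in general, 5 were called higher at D15 and 4 at D21, with median log2 fold changes of 3.96 and 2.94. Itgax, which encodes CD11c, had the largest change at D15, 6.23 ± 0.38 (adjusted p = 8.66e-07), with 1502 to 3946 reads in EAM hearts against 16 to 50 in controls. Dpp4 had the smallest, 0.56 ± 0.24 (adjusted p = 0.0588).

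Among 9 other cDC1 genes, 6 were called higher at D15 and 3 at D21, with medians of 1.80 and 1.16. Itgae, which encodes the integrin CD103 of cDC1 cells and some T cells, had the largest D15 change, 3.96 ± 0.40 (adjusted p = 1.89e-05). Ppt1 had the smallest, 0.30 ± 0.07 (adjusted p = 0.00426), and did not reach a 2-fold change. Among 5 tested cDC2 genes, 3 were called higher at D15 and 1 at D21, with medians of 1.84 and 0.89. Sirpa, an inhibitory receptor of cDC2 cells and macrophages, changed most at D15 (2.92 ± 0.16, adjusted p = 5.07e-07) and the transcription factor gene Klf4 least, with -0.23 ± 0.11 (adjusted p = 0.0992).

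Of the plasmacytoid genes, 7 of 9 tested were called higher at D15 and 3 of 8 at D21, with medians of 2.30 and 1.41. The ETS factor gene Spib, also active in B cells, had the largest D15 change, 4.79 ± 0.28 (adjusted p = 6.87e-07), on 2 reads in each control. Tcf4, which encodes the E protein that sets plasmacytoid identity and is widely expressed, was the only one below 0, at -0.46 ± 0.08 (adjusted p = 0.000601), under a 2-fold change.

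Of the genes of mature dendritic cells, 10 of 12 tested were called higher and 1 lower at D15, and 4 of 11 higher at D21, with medians of 2.999 and 2.28. The chemokine gene Ccl17 had the largest D15 change. It had 239 to 401 reads in EAM hearts and 3 reads in all 4 controls, a ratio of pooled CPM of 281 (95% exact interval 95.9 to 1364, counting error only). Tbc1d4, which encodes a regulator of glucose transport also found in muscle, was the one called lower, at -1.14 ± 0.19 (adjusted p = 0.000436). At D10, 0 genes of the 5 lists were called. Their D10 median log2 fold changes were 1.73 (general), 0.48 (cDC1), 0.41 (cDC2), 0.65 (plasmacytoid) and 0.50 (mature). For all genes tested at D10 the median was -0.0079. No D15 control reached 10 reads for Ccr9 and Spib of the plasmacytoid list and Ccr7, Ccl22 and Ccl17 of the mature list, which entered through the EAM hearts alone. At D21 this held for Spib, 1 of the 3 plasmacytoid genes called, and Ccl22, 1 of the 4 mature genes called. Several genes of these lists are shared with macrophages, B cells or T cells, so the counts are not specific to dendritic cells.

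**Figure D3:**
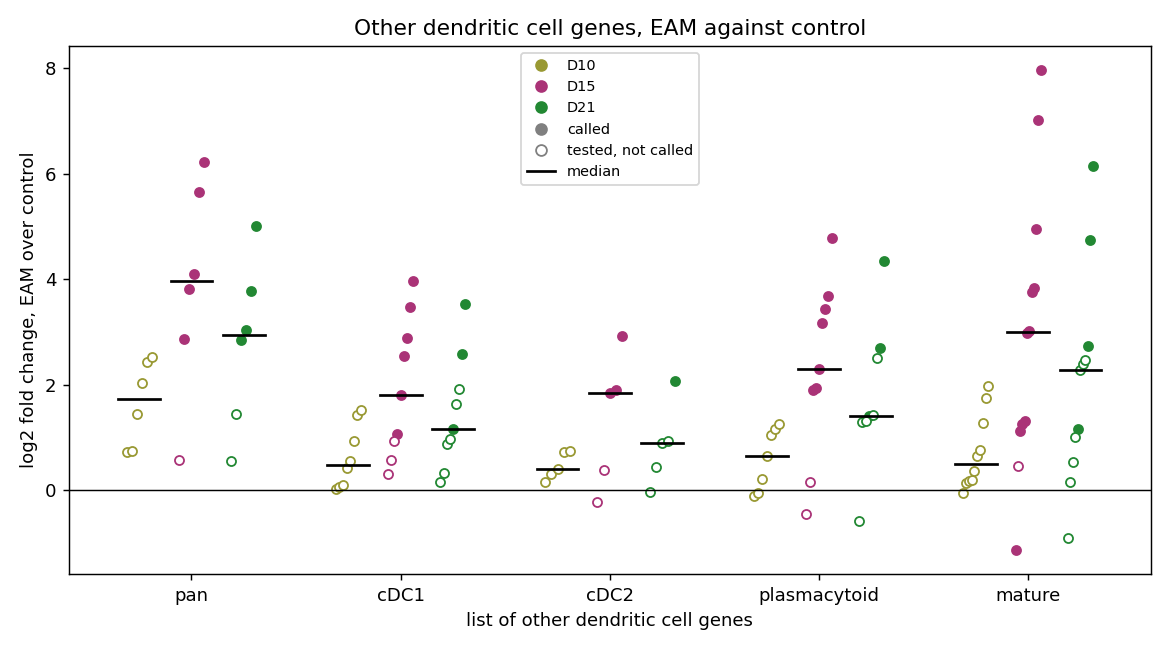
Log2 fold change of EAM over control for the tested genes of 5 lists of other dendritic cell genes at D10, D15 and D21. Each point is a gene, filled where called, and black lines are medians. At D15 the medians lie between 1.80 and 3.96, and at D10 no gene is called.

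Markers of other leucocytes were also called in these hearts. At D15, 4 of 4 pan-leucocyte, 4 of 4 monocyte, 5 of 5 neutrophil, 3 of 3 NK cell and 6 of 7 T cell genes were called higher. At D21 the counts were 4 of 4 pan-leucocyte, 2 of 4 monocyte, 1 of 5 neutrophil, 1 of 2 NK cell and 6 of 7 T cell genes. No D15 control reached 10 reads for Cd8a and Cd5 of the T cell list and Klrb1c of the NK cell list, so these were tested through the EAM hearts alone, as were Cd8a, Cd5 and Ncr1 at D21, where Ncr1 was the 1 NK cell gene called. The same held for Cd8b1 and Themis, the 2 of 6 thymocyte genes tested at D15, and no thymocyte gene was tested at D21. The 6 thymocyte genes summed to 5.44 to 6.62 CPM in D15 EAM hearts against 0.155 to 0.531 CPM in controls, and to 0.935 to 4.52 CPM against 0.263 to 0.461 CPM at D21. Of these thymocyte genes, Rag2 had 0 reads in every D15 and D21 heart. Rag1 had reads in D15 EAM and D21 control hearts, and none in D15 control or D21 EAM hearts. Dntt had reads in EAM hearts at both time points and in D15 controls, and none in D21 controls. Ptcra had reads in both groups at both time points. Mast cell genes were called higher in 0 of 4 cases at D15 and D21 and lower in 1 of 4 at D21, and fibroblast genes higher in 1 of 5 at each. Cardiomyocyte genes were called lower in 3 of 6 cases at D15 and 0 at D21. Beside these counts, 18.1% of all genes were called higher and 12.9% lower at D15, and 4.13% and 1.16% at D21. The part of these other cell types in the levels of the dendritic cell genes was not tested.

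To set the members beside the leucocytes as a whole, the level of each gene was divided by that of Ptprc in the same heart, as log2(CPM + 0.1), where the pseudocount of 0.1 CPM raises the ratio of a gene with few reads, most of all in controls, where both genes are low. Ptprc was at 244 to 305 CPM in D15 EAM hearts against 16.5 to 20.7 CPM in D15 controls, and at 149, 96.2, 48.9 and 228 CPM in D21 EAM hearts against 15.0 to 29.4 CPM in D21 controls. Most genes of the heart therefore fall relative to Ptprc. At D15, 95.4% of all genes were lower relative to Ptprc in EAM hearts with no overlap and 1.07% higher, and at D21 these shares were 90.4% and 0.858%. At D10 they were 2.71% and 0.359%, and 0 of 8 members stood apart in either direction.

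At D15 the median difference relative to Ptprc was -3.08 on the log2 scale for the 9 members and -3.95 for all genes. Beside the 95.4% of all genes, 7 of 9 members were lower relative to Ptprc with no overlap and 0 higher. For 6 of them, Clec9a, Cd209a, Clec10a, Zbtb46, Siglech and Fscn1, the differences ranged from -1.88 on the log2 scale for Clec10a to -4.73 for Zbtb46, each with p = 0.0286 in the exact two-sided permutation test, the smallest that 4 against 4 hearts allow (adjusted p over all genes = 0.0296). These 6 stood apart in the same direction with no pseudocount, with a pseudocount of 0.5 CPM and with 4 pan-leucocyte genes in place of Ptprc. The seventh, Batf3, depended on the pseudocount, with -0.52 as tested, -0.15 with none and -1.34 with 0.5 CPM. With the 4 pan-leucocyte genes in place of Ptprc it was at -0.24, and the groups overlapped. From the CPM themselves, Batf3 was at 12.9 to 17.3 CPM per 1000 CPM of Ptprc in EAM hearts and at 14.5 to 19.9 in controls, and the groups overlapped. Flt3 (-0.44, exact permutation p = 0.257) and Xcr1 (-1.25, exact permutation p = 0.0571) overlapped with the pseudocount of 0.1 CPM and with none (-0.067 and -1.08), and were lower with no overlap with 0.5 CPM, where the count was 9 of 9. From the CPM, Flt3 was at 8.75 to 20.4 per 1000 of Ptprc in D15 EAM hearts and at 11.4 to 21.4 in controls.

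At D21, 4 of 9 members were lower relative to Ptprc with no overlap, namely Clec9a (-1.85), Zbtb46 (-2.90), Siglech (-1.43) and Fscn1 (-2.32), and 1 was higher, Flt3. The median difference at D21 was -0.85 for the 9 members and -2.41 for all genes. Flt3 was at 41.997, 52.1, 31.4 and 37.4 CPM per 1000 CPM of Ptprc in D21 EAM hearts and at 15.2, 20.8, 17.5 and 20.9 in D21 controls. Each EAM heart was above each control, a difference of 0.83 on the log2 scale with the pseudocount of 0.1 CPM (exact permutation p = 0.0286, adjusted p over all genes = 0.0313), 1.12 with none and 0.14 with 0.5 CPM, where the groups overlapped. Batf3 (0.28), Xcr1 (-0.27), Cd209a (-0.54) and Clec10a (-0.85) overlapped, with exact permutation p of 0.343, 0.429, 0.343 and 0.0571, and Clec10a was lower with no overlap with 0.5 CPM and with the 4 pan-leucocyte genes.

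**Figure D4:**
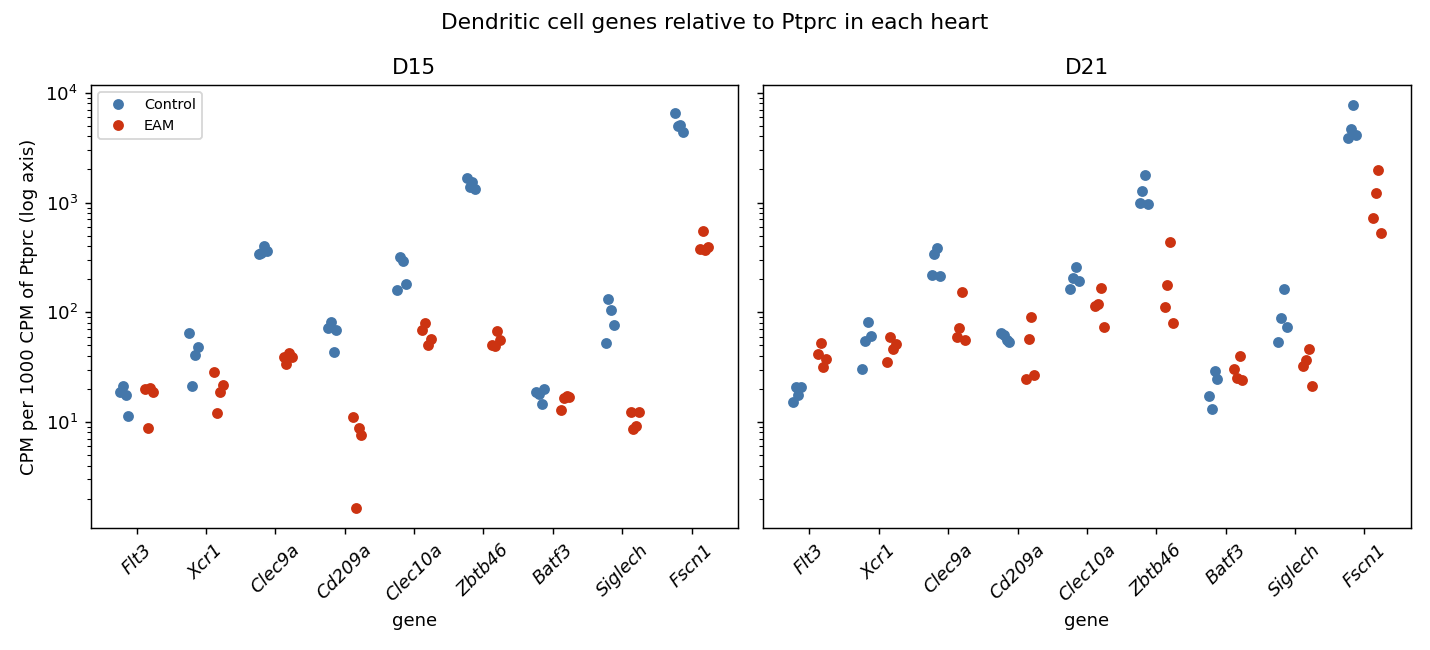
Level of each member per 1000 CPM of Ptprc in each heart at D15 and D21, on a log axis, with blue points for control and red points for EAM hearts. No pseudocount is added here. At D15 the EAM hearts lie below the controls for 6 of 9 members, Batf3 overlaps, and at D21 Flt3 lies above the controls, with 31.4 to 52.1 in EAM hearts.

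The genes whose levels followed each member most closely were found by Pearson's r of log2(CPM + 0.5) over the 24 hearts, among 14279 genes, as a description, since the hearts share their treatment groups. For Flt3 these were Itgae (r = 0.984), Foxp3 (0.974) and Ctla4 (0.973), the last 2 known from regulatory T cells. For Batf3 they were Lat (0.986), Cd52 (0.985) and Ptpn7 (0.985), genes of T cells and other lymphocytes. For Xcr1 they were Gcsam (0.965), Flt3 (0.958) and Tlr11 (0.949), and for Cd209a Mycl (0.841), Gcsam (0.793) and H2-Ob (0.776). Mycl is known as a factor of classical dendritic cells. Clec10a went with Tmem176a (0.964), P2ry6 (0.960) and Dpep2 (0.958).

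The other members had neighbours of other kinds. Zbtb46 went with Tmem136 (r = 0.937), Pik3c2b (0.936) and Mef2d (0.931), and Clec9a with Ttpal (0.905), Bahd1 (0.886) and Axl (0.857). Siglech went with Nacc1 (0.891), Nlrc3 (0.887) and Haus7 (0.880), and Fscn1 with Scarf2 (0.872), Cd276 (0.866) and Col15a1 (0.856).

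Promoter sequences are shown for the 4 members whose RefSeq start is also the first base of a GENCODE M21 transcript, to place the called genes Flt3, Xcr1 and Cd209a beside Clec9a, which stayed under a 2-fold change. Each is the 250 bases before the start, from RefSeq on GRCm38.p6, at chr5:147400490-147400739 on the minus strand for Flt3, chr9:123862030-123862279 (minus) for Xcr1, chr8:3748985-3749234 (minus) for Cd209a and chr6:129408612-129408861 (plus) for Clec9a. Capitals mark matches, on either strand, to any of 6 motifs of factors known in dendritic cells.
Flt3: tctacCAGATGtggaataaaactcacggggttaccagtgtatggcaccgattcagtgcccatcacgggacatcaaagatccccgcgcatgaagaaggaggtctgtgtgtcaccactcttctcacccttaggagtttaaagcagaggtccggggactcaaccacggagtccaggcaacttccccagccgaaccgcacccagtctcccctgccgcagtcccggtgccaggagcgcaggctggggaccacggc
Xcr1: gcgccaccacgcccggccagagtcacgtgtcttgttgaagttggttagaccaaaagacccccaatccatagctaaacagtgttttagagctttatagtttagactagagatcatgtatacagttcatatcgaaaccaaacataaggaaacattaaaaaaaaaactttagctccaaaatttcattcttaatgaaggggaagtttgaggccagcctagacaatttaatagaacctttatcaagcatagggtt
Cd209a: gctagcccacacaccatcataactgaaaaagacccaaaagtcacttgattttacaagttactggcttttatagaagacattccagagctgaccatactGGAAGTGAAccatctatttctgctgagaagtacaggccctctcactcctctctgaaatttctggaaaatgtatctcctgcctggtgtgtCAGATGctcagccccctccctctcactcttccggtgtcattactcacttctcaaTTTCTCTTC
Clec9a: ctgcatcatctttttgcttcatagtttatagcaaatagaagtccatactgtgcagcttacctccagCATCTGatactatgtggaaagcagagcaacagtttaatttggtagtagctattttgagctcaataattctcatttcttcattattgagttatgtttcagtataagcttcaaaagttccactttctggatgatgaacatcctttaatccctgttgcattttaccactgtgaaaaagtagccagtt

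The motifs searched were GAGGAAGT for PU.1, GGAANNGAA for the composite of an ETS factor with IRF8 or IRF4, GAANNGAAA for the interferon-stimulated response element, TGANTCA for AP-1 factors such as BATF3, GGGANTTCC for NF-kappaB and CANCTG, the E-box, for E proteins such as TCF4. The first 2 of these and the response element can overlap one another. Of 32851 promoters of the same length, 2.44% hold the PU.1 motif, 6.99% the composite, 6.31% the response element, 6.75% the AP-1 motif, 1.43% the kappa B motif and 44.8% an E-box. The Cd209a promoter held the composite 152 bases and the response element 9 bases before the start, besides an E-box at 63 bases. The Flt3 and Clec9a promoters held 1 E-box each, at 245 and 184 bases, and the Xcr1 promoter held none of the 6. These matches are a description of the letters in these windows.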

How the data were processed

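RNA from 24 mouse hearts was sequenced, 4 EAM and 4 control hearts at each of 3 time points. The authors aligned reads to GRCm38 with HISAT2 2.0.4, removed duplicates with Picard, counted reads per Ensembl gene with featureCounts and deposited these counts without normalization; the sources used here do not give the strand setting. The counts per sample and the joint table differed in 0 cells. Groups came from the sample titles. Replicates were separate mice, per the study's text.

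Symbols and positions came from GENCODE M21 (40254 of 41388 identifiers had a symbol). Genes reaching 10 reads in 4 or more samples of a fit entered it, libraries were scaled by TMM, and groups were compared with the quasi-likelihood test of edgeR 4.0.16 in R 4.3.3, with limma 3.58.1 and Benjamini-Hochberg adjustment over all genes kept. Calls needed an FDR under 0.01 and a 2-fold change. Changes of the EAM effect were contrasts in a fit of all 24 samples. Levels relative to Ptprc were compared by exact two-sided permutation over 70 splits. Python 3.11.15, numpy 2.4.6, pandas 2.3.3 and matplotlib 3.10.9 were used for tables and plots. Alternatives were DESeq2 1.42.0, the likelihood ratio test, other size factors, no filter, a fit of all samples, a replicate block, another denominator or pseudocount, each library left out and, added after seeing the data, the bias-adjusted form of the quasi-likelihood test and no pseudocount. Scripts were tested on simulated data.

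Genes named are the 9 members, the genes of each other dendritic list with the largest and smallest D15 change among those tested, and the 3 genes best correlated with each member among genes whose mean reached 1 CPM. Clec1b was named after its overlap with Clec9a was seen. The members and lists were chosen with earlier results of these data known. The listed gene Flt3l was not analysed here, and the B cell list is not reported here.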

Additional observations from a re-analysis of the deposited data

Results flagged for a closer look

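In 54 sets of 4 hearts (9 members in 6 groups), 4 sets had 1 heart far from the other 3, by Dixon's test. Chance gives about 1 in 20. Cd209a was at 1.998 CPM in D10 control replicate 1, with the other controls between 0.264 and 0.410 CPM, and at 1.19 CPM in D10 EAM replicate 2, with the others between 0.557 and 0.663 CPM. Clec10a was at 3.04 CPM in D10 control replicate 4, below the 5.58 to 5.90 CPM of the others. Zbtb46 was at 22.9 CPM in D15 control replicate 2, below the 27.3 to 28.0 CPM of the others.

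The effect of EAM differed between D10 and D15 by a test of the difference itself for 4 members. The effect at D15 exceeded that at D10 by 3.25 for Flt3, 2.502 for Xcr1, 1.40 for Clec10a and 2.51 for Batf3 on the log2 scale, with adjusted p between 0.00322 and 0.00692 in edgeR's quasi-likelihood test. Flt3 had fewer than 10 reads in 10 of the 12 controls and entered this fit through the EAM hearts.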

How the results depend on the processing

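The number of members called was 0 at D10 and 0 for the change from D15 to D21 under every alternative run, and 4 or 5 at D15. At D21 it was 4 to 6 under other tests, size factors and filters, and 0 to 6 with 1 library left out. For the change from D10 to D15 it was 4 under other settings and 1 with D10 control replicate 1 left out to 4 with others. With the replicate number as a block the counts were 0, 4 and 4 at D10, D15 and D21 and 4 and 0 for the changes. Deviations of same-numbered hearts correlated from -0.083 to 0.368 at D10, from -0.095 to 0.035 at D15 and from 0.097 to 0.303 at D21. Not every pair was over 0.1 at any time point, although at D21 only 1 was under it, and no source ties the numbers across groups, so the numbers were not used as pairs. Over all genes, DESeq2 called 1733 and the likelihood ratio test 1768 genes at D21, against 807, and 52 and 47 at D10, against 0. The fit of all 24 samples called 1960 at D21, and the block 114 for the change from D15 to D21, against 597.

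At D10 the log2 fold changes of Cd209a (-0.0074) and Siglech (-0.009) turned positive, far from any threshold; the cause was not tested. Cd209a was at 0.013 by DESeq2, 0.000298 by the likelihood ratio test, 0.0051 with RLE size factors, 0.027 with total counts, 0.0067 with no filter, 0.22 with the replicate block, 0.0024 in the fit of all samples, and -0.29 to 1.12 with 1 library left out. Siglech was at 0.0085 with RLE, 0.067 with total counts, 0.00088 with no filter, 0.0059 in the fit of all samples, 0.035 in the bias-adjusted form and -0.46 to 0.31 with 1 library left out. With 1 library left out, Fscn1 ranged from -0.030 to 0.13 at D21, the D10 to D15 change of Cd209a from -0.35 to 1.17, and the D15 to D21 changes of Flt3 and Siglech from -0.59 to 0.059 and from -0.016 to 0.36.

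Relative to Ptprc, with 1 library left out, 0 to 3 members were lower at D10, 7 to 8 at D15 and 4 to 5 at D21. With the 4 pan-leucocyte genes in place of Ptprc, 6 members were lower at D15 and 5 at D21, with a pseudocount of 0.5 CPM 9 and 5, and with none, an alternative chosen after seeing the data, 6 and 4. At D21, 1 member (Flt3) was higher in each of these, and 0 with a pseudocount of 0.5 CPM. Low reads limit Flt3, Batf3, Cd209a, Siglech and Xcr1.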
